A study of Danio rerio with 6 samples.

Results

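In the ovary of adult zebrafish, 40 of 32519 annotated genes had counts in every wild-type (WT) library and next to none in any ddx4-L mutant library. A gene belonged to this group when it had at least 20 counts in each of the 3 WT libraries and at most 3 counts in each of the 3 mutant libraries, as deposited. The genes were thus chosen by their counts in all 6 libraries, and the difference between the genotypes in these genes is described without a test. With the genotypes exchanged, the same thresholds gave 32 genes.

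RNA was sequenced from dissected ovaries of ddx4-L mutant (genotype ddx4E4Δ) and WT zebrafish at 6 months post-fertilization (mpf), in 3 libraries of each genotype that the study calls biological replicates. Whether a library holds 1 fish or several is not given in the sources used here. The mutant line was made with CRISPR-Cas9 and has a few bases removed from an exon found only in the long, ovary-biased ddx4 transcript. The short transcript remains, so these ovaries are not without ddx4, and all mutant libraries come from 1 mutant line. The values of a library sum to between 76520483 and 78770562 counts in mutant ovaries and between 76970351 and 86263179 counts in WT ovaries.

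The gene ddx4 encodes the RNA helicase Vasa, a component of germ granules that marks the germ line. Most RNA of an adult fish ovary comes from oocytes, which store transcripts for the embryo, and a smaller part comes from granulosa and theca cells, stroma, blood and immune cells. In such bulk samples fewer cells of a type and less RNA per cell cannot be told apart.

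Oocyte markers were present in all 6 libraries. A gene is described as called where its edgeR adjusted p was below 0.05 and its fitted change reached 1 on the log2 scale in either direction, which 601 of all 19353 genes tested (3.11%) met. Of the 8 genes fixed as oocyte markers, none was called between the genotypes, and their summed level was 3550 to 4730 CPM (the usual abundance unit, counts scaled to the effective library size) in mutant ovaries and 4570 to 4750 CPM in WT ovaries. GDF9 missed the call only by the limit on the change, at -0.82 on the log2 scale (edgeR adjusted p = 0.00636). The median change of the 8 was -0.189, and bmp15, ddx4 and org were fitted above 0. Mutant replicate 2 stood apart through liver transcripts. The liver fatty acid-binding protein gene fabp10a had 3, 1864 and 4 counts in mutant and 0, 0 and 9 counts in WT replicates 1, 2 and 3. The liver marker apoa2 had 44, 5589 and 7 counts in mutant and 0, 0 and 4 counts in WT. The liver marker tfa had 1412, 24634 and 1010 counts in mutant and 38, 22 and 252 counts in WT. Both apoa2 and tfa were thus higher in every mutant library than in any WT library. The group of genes counted only in WT rests on each library, because a single count above 3 in a mutant library removes a gene. Leaving out a library removes a condition, so it can only add genes. Without mutant replicate 1 the rule gave 78 genes, without mutant replicate 2 it gave 67, and without WT replicate 2 it gave 64.

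The 40 genes were nearly silent in the mutant libraries. In 35 of them every mutant library had 0 counts. The other 5 genes had 6 values above 0 among their mutant libraries, of which 4 were in mutant replicate 2, 2 in mutant replicate 1 and none in mutant replicate 3. The gene syt1b had 2, 2 and 0 counts in mutant replicates 1, 2 and 3, and the highest mutant value of the group, 3 counts, was reached by si:ch211-232h16.4 and si:dkeyp-73a2.2 in mutant replicate 2. The values of this table are estimated counts that sum to more than the sequenced reads. In each library 4 was the commonest value above 0, so 1 fragment appears to be worth several units and a value of 3 or less cannot be told from 0. A floor of 12 counts was used for fold comparisons, which corresponds to 0.144, 0.157 and 0.151 CPM in mutant replicates 1, 2 and 3.

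In WT ovaries the genes were read at low levels. Their mean WT level ran from 0.287 to 5.77 CPM with a median of 0.929 CPM, while the median over the 15776 genes with at least 20 counts in each WT library was 16.4 CPM. Of these 15776 genes, 65% had a mean WT level above that of the highest of the 40. The level reached 1 CPM in 19 of the 40 genes and 2 CPM in 8. Together the 40 genes had 3, 10 and 0 counts in mutant replicates 1, 2 and 3 and 3825, 4476 and 4321 counts in WT replicates 1, 2 and 3.

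**Figure D1:**
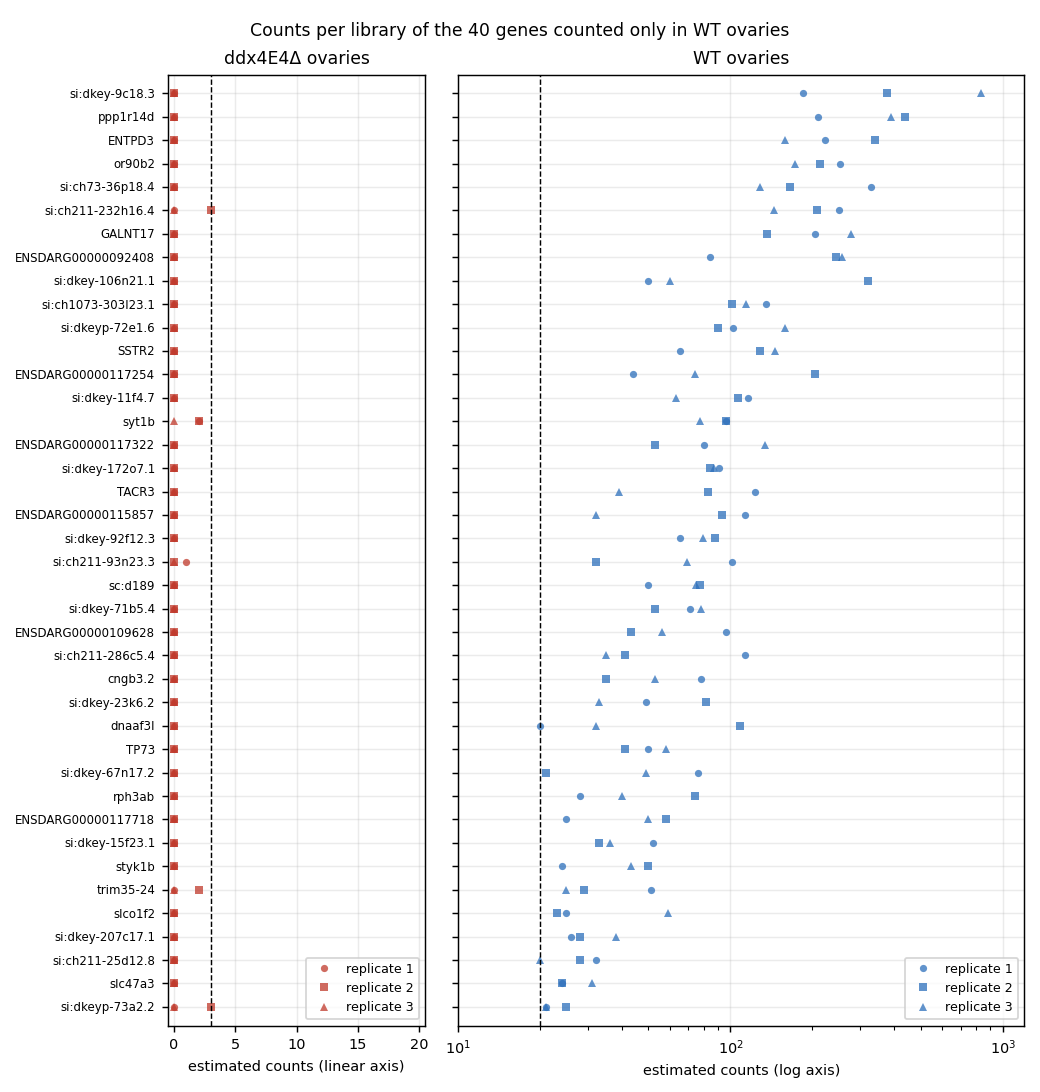
Estimated counts of the 40 genes, ordered by mean WT CPM, in ddx4E4Δ ovaries (left, linear axis) and in WT ovaries (right, log axis). Each point is 1 library and the dashed lines mark the limits of the rule, 3 and 20 counts. No mutant point lies above 3, and the WT points run from 20 to 831 counts.

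The share of WT-expressed genes that met the rule fell with the WT level. It was 1.3% (12 of 924) for genes with a mean of 20 to 50 counts in WT, 0.987% (15 of 1520) for 50 to 100 counts, 0.411% (6 of 1461) for 100 to 200 counts and 0.385% (7 of 1817) for 200 to 500 counts. Of the 3443 genes with a WT mean between 500 and 2000 counts and the 6611 genes above that, 0 met the rule. The group thus holds no gene with a WT mean of 500 counts or more. The limit on mutant counts was the same at every WT level, so genes with more WT counts needed a larger fold difference to meet it. The fall with the WT level, and the low WT level of the group, therefore follow at least in part from the rule. They cannot be read as a property of the genes alone.

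**Figure D2:**
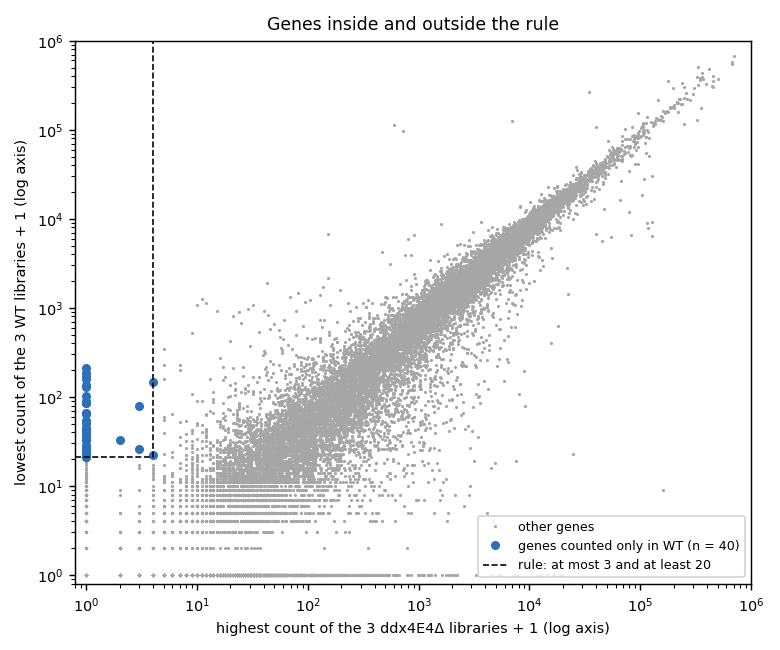
Highest count of the 3 ddx4E4Δ libraries against the lowest count of the 3 WT libraries for each gene with a count, with 1 added to both (log axes). The 40 genes inside the dashed limits (blue) sit at the left edge, and none of them has a lowest WT count above 209.

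By name, the group is made mostly of loci without an established gene name. Of the 40, 18 carry the name of a genomic clone (si:), 6 have no symbol, 1 has another placeholder (sc:d189) and 15 have a gene name. Clone names made up 45% of the 40 genes, against 16.1% of the 5528 other genes with at least 20 counts in each WT library and a mean WT count in the same range. Genes without a symbol made up 15% and 8.03%, and gene names 37.5% and 73.5%. The median of the WT mean counts was 72.3 for the 40 and 119 for the 5528. Clone names were rarer, at 9.05%, over all genes with at least 20 counts in each WT library. The names were not compared at equal level. By family, 1 of the 40 is a tripartite motif gene (trim35-24), 1 an odorant receptor gene (or90b2) and 2 are solute carriers (slco1f2 and slc47a3), families that made up 0.561%, 0.0724% and 2.03% of the same 5528 genes. The other gene families counted, such as histones, cytochromes P450 and zinc fingers (znf), had no member among the 40, and none of them made up more than 0.995% of the 5528. No pair of the 40 shared a symbol stem, the part left after final digits, dots and a or b letters are removed. By this stem the 2 solute carriers belong to separate families. The median WT level was 0.929 CPM for the clone-named genes, 1.08 CPM for the genes without a symbol and 0.713 CPM for the named genes.

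The highest of the clone-named genes was si:dkey-9c18.3 (ENSDARG00000096579). It had no counts in the mutant and 184, 376 and 831 counts in WT replicates 1, 2 and 3. Its mean WT level of 5.77 ± 3.76 CPM (SD, n = 3) lay at least 36.7-fold above the floor of 12 counts in the mutant (taken in the library where it is highest), although the WT libraries themselves differed 4.52-fold. The gene si:ch73-36p18.4 (ENSDARG00000110812) followed with no counts in the mutant and 327, 165 and 128 counts in WT. The next, si:ch211-232h16.4 (ENSDARG00000097241), had 0, 3 and 0 counts in mutant replicates 1, 2 and 3 and 250, 208 and 145 counts in WT replicates 1, 2 and 3. In both of these genes WT replicate 1 was the highest and WT replicate 3 the lowest of the WT libraries.

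Further down, si:dkey-106n21.1 had 50, 321 and 60 counts in WT replicates 1, 2 and 3, si:ch1073-303l23.1 had 135, 101 and 114, and si:dkeyp-72e1.6 had 102, 90 and 158, all with 0 counts in the mutant. The WT libraries were even for si:ch1073-303l23.1, whereas in si:dkey-106n21.1, at 1.88 ± 2.06 CPM in WT (SD, n = 3), the SD exceeded the mean. Among the genes without a symbol, ENSDARG00000092408 was the highest, with no counts in the mutant and 84, 245 and 257 counts in WT replicates 1, 2 and 3. The lowest of the 40 was si:dkeyp-73a2.2 (ENSDARG00000079785), with 0, 3 and 0 counts in mutant replicates 1, 2 and 3 and 21, 25 and 21 counts in WT replicates 1, 2 and 3. Also close to the limit were si:ch211-25d12.8, with 32, 28 and 20 counts in WT, and si:dkey-67n17.2, with 76, 21 and 49 counts in WT, both without counts in the mutant.

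Among the 15 named genes, a phosphatase inhibitor, enzymes of the cell surface and Golgi, and an odorant receptor had the highest levels. The gene ppp1r14d (ENSDARG00000110496) encodes an inhibitory subunit of protein phosphatase 1, and had no counts in the mutant libraries and 209, 439 and 390 counts in WT replicates 1, 2 and 3, or 4.42 ± 1.51 CPM in WT (SD, n = 3). ENTPD3 (ENSDARG00000035309) encodes an enzyme that hydrolyses nucleotides outside the cell, and had no counts in the mutant libraries and 222, 340 and 158 counts in WT. GALNT17 (ENSDARG00000042418) belongs to the enzymes that start O-linked glycosylation, and had no counts in the mutant libraries and 205, 136 and 276 counts in WT. The WT means of these 3 genes lay at least 28.1-fold, 19.9-fold and 16.6-fold above the level of 12 counts in the mutant. Names in capitals come from the human gene and do not always tell the paralogs of zebrafish apart.

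Receptors were the next group of named genes. The odorant receptor gene or90b2 (ENSDARG00000070344) had no counts in the mutant libraries and 252, 214 and 172 counts in WT replicates 1, 2 and 3, or 2.75 ± 0.68 CPM in WT (SD, n = 3). A somatostatin receptor gene, SSTR2 (ENSDARG00000069806), had 0 counts in the mutant and 65, 128 and 146 counts in WT. The tachykinin receptor gene TACR3 (ENSDARG00000075112) had 0 counts in the mutant and 123, 83 and 39 counts in WT. These receptor genes did not share an order of the WT libraries, since SSTR2 was highest in WT replicate 3 and TACR3 was lowest there. Outside the group, another SSTR2 gene (ENSDARG00000059090) had 0, 8 and 0 counts in mutant and 0, 7 and 7 counts in WT. Another TACR3 gene (ENSDARG00000003054) had 4, 3 and 0 counts in mutant and 15, 0 and 10 counts in WT. In both of these genes the genotypes overlapped.

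Several named genes are best known from neurons and sensory cells. The gene syt1b (ENSDARG00000042350) encodes a synaptotagmin, a calcium sensor of vesicle release, and had 96, 96 and 77 counts in WT replicates 1, 2 and 3. The gene rph3ab (ENSDARG00000105490) encodes a rabphilin, an effector of Rab proteins on secretory vesicles, and had 28, 74 and 40 counts in WT. The gene cngb3.2 (ENSDARG00000101368) encodes a cyclic nucleotide-gated channel subunit of the type used by cone photoreceptors, and had 78, 35 and 53 counts in WT. In the mutant, rph3ab and cngb3.2 had 0 counts in each library. Of the family of syt1b, 23 other synaptotagmin genes are in the table and 13 were tested, and on the log2 scale their changes lay between -2.74 and 1.78 (median 0.19). None of these 13 was called, beside 3.11% over all genes tested. All mutant libraries lay below all WT libraries in SYT3 and SYT7 (ENSDARG00000063568). They lay above them in SYT9 (ENSDARG00000029239) and SYT6 (ENSDARG00000076730). Among those not tested, SYT2 (ENSDARG00000025206) had no counts in the mutant and 9, 42 and 19 counts in WT.

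The remaining named genes lay below 1 CPM. TP73 (ENSDARG00000017953), a transcription factor gene, had no counts in the mutant libraries and 50, 41 and 58 counts in WT replicates 1, 2 and 3. Its relative TP63 was read in both genotypes, with 358, 253 and 219 counts in mutant and 411, 487 and 242 counts in WT replicates 1, 2 and 3. The kinase gene styk1b had 24, 50 and 43 counts in WT, and dnaaf3l, named after a factor that assembles the dynein arms of cilia, had 20, 108 and 32 counts in WT, both with 0 counts in each mutant library. The transporter gene slc47a3, of the family that exports drugs and toxins, had 24, 24 and 31 counts in WT and 0 counts in each mutant library. The placeholder gene sc:d189 had 50, 77 and 75 counts in WT and 0 counts in the mutant.

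The gene trim35-24 (ENSDARG00000099684) belongs to a large tripartite motif family of fish, many of whose members are ubiquitin ligases. It had 0, 2 and 0 counts in mutant replicates 1, 2 and 3 and 51, 29 and 25 counts in WT replicates 1, 2 and 3. Of the 24 other genes named trim35 with a number, 15 were tested, and 1 of them was called. This was trim35-7 (ENSDARG00000104825), which fell to 9.99 ± 1.92 CPM in mutant ovaries, against 31.6 ± 2.80 CPM in WT ovaries (SD, n = 3), or -1.66 ± 0.18 on the log2 scale (fitted change ± standard error; p after adjustment over the tested genes = 0.00496, edgeR quasi-likelihood, Benjamini-Hochberg). The trim35 genes that lie within 2 annotated genes of trim35-24, namely trim35-22, trim35-23 and trim35-25, had at most 11 counts in any library. How reads that fit several trim35 genes were counted is not given in the sources used here, so the split between these genes is uncertain.

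The transporter gene slco1f2 (ENSDARG00000101156), of the organic anion transporter family, had no counts in the mutant libraries and 25, 23 and 59 counts in WT replicates 1, 2 and 3. The gene next to it in the annotation, slco1f3 (ENSDARG00000105691), had 6, 8 and 0 counts in mutant replicates 1, 2 and 3 and 47, 38 and 69 counts in WT replicates 1, 2 and 3. On its other side, 3 annotated genes away, slco1f4 (ENSDARG00000101014) had 0, 0 and 10 counts in mutant and 50, 62 and 47 counts in WT. In both genes all mutant libraries lay below all WT libraries. Their log2 fold changes were -3.43 and -3.97 (standard errors 1.04 and 1.35), and edgeR's adjusted p of 0.12 and 0.158 did not pass the threshold. DESeq2 called slco1f3 (adjusted p = 0.0262), and without mutant replicate 3 edgeR called slco1f4 (adjusted p = 0.0399). Over all alternatives the adjusted p ran from 0.0262 to 0.259 for slco1f3 and from 0.0399 to 0.298 for slco1f4. The last gene of this name, slco1f1, had no counts in the mutant libraries and 12, 15 and 0 counts in WT, and was too low to be tested. How reads shared between these related genes were divided is not given either.

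The neighbours of the 40 genes were examined because position had no part in the rule. The RefSeq annotation of assembly GRCz12tu, which is not the build that the reads were mapped to, held 19 of the 40 genes under a matching symbol. These 19 lay on 14 chromosomes, with at most 2 on any of them, and 0 lay on the chromosome of ddx4. No pair of them was adjacent. On each side the nearest gene with a matched row in the count table was taken, which gave 38 genes, and 21 of these were the very next annotated gene. Another 14 lay 2 to 5 annotated genes away and 3 lay 9 or more away. The farthest, at 62, was p2rx8 by GALNT17. They were read against the 3.11% called over all genes tested.

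None of the 28 neighbours that could be tested was called by edgeR, 6 (21.4%) had an unadjusted p under 0.05, beside 19.9% over all genes tested, and DESeq2 called 1, slco1f3. Their median log2 fold change was 0.05, beside 0.01 over all genes tested, with 12 neighbours lower and 16 higher in mutant ovaries. All mutant libraries lay below all WT libraries in 6 of the 28, or 21.4%, beside 14.0% over all genes tested. These 6 were GASK1A, slco1f3, slco1f4, spint1a, RRN3 and PDXDC1. Of the 3 genes taken on each side, 88 were tested and 1 was called, CLCN6 near TP73, which was higher in the mutant at 51.7 ± 1.21 CPM, against 23.5 ± 6.12 CPM in WT (SD, n = 3; fitted change 1.14 ± 0.18 on the log2 scale, edgeR adjusted p = 0.0185). It lies 13 annotated genes from TP73, and its call was lost without any of the 3 mutant libraries and without WT replicate 3. Near syt1b, 2 annotated genes away, lies si:dkey-30c15.17. It had 0, 9 and 0 counts in mutant and 95, 99 and 90 counts in WT replicates 1, 2 and 3. The main fit did not call it (edgeR adjusted p = 0.0785). DESeq2 called it as lower (adjusted p = 0.00171), as did edgeR without mutant replicate 2 (adjusted p = 0.0209). Without WT replicate 1, edgeR called xgb, near ppp1r14d, as higher (adjusted p = 0.0414).

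Around the 2 best-read named genes the neighbourhoods differed. Next to ppp1r14d, the protease inhibitor gene spint1a had 4150, 4332 and 4794 counts in mutant and 4955, 5222 and 5631 counts in WT replicates 1, 2 and 3, which edgeR fitted as -0.28 ± 0.10 on the log2 scale (adjusted p = 0.176). On the other side, 3 annotated genes away, ZFYVE19 was fitted at 0.06 ± 0.12 (edgeR adjusted p = 0.847). Both neighbours of ppp1r14d thus had more than 2000 counts in every library. Next to ENTPD3, the Golgi kinase gene GASK1A had no counts in the mutant libraries and 14, 13 and 14 counts in WT replicates 1, 2 and 3 (adjusted p = 0.0625 from edgeR's test, 0.0532 to 0.25 over the alternatives). The WT counts of GASK1A lie barely above 12, so the size of its fitted difference is not given as a measure. DDC, on the other side of ENTPD3, had 126, 31 and 13 counts in mutant and 91, 160 and 314 counts in WT, and the genotypes overlapped.

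**Figure D3:**
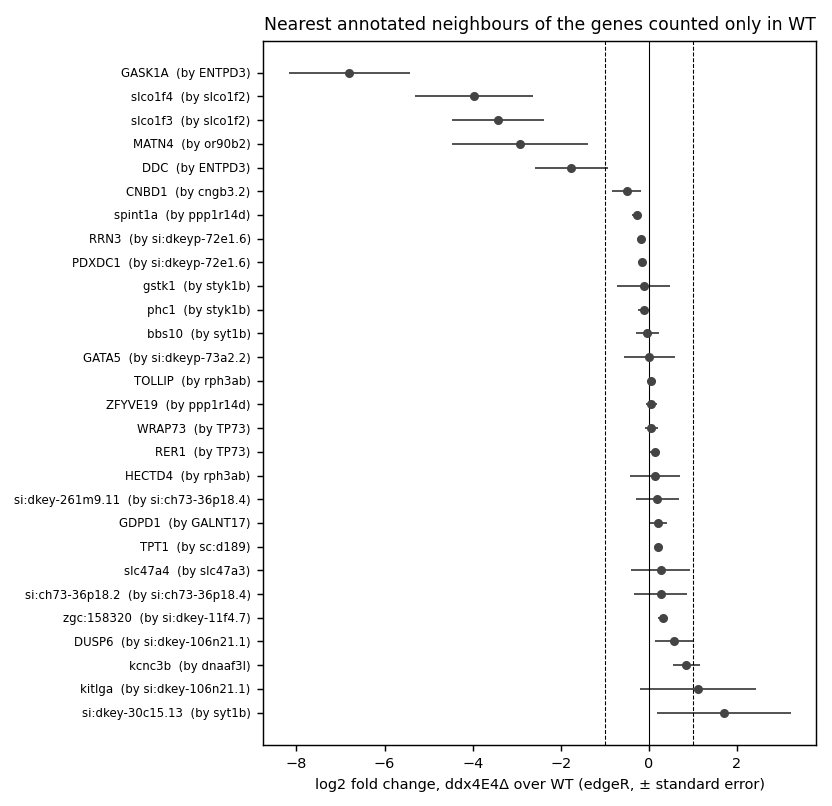
Log2 fold change, ddx4E4Δ over WT, with its standard error from edgeR, for the 28 nearest annotated neighbours that could be tested; the gene counted only in WT that each lies by is given in parentheses and dashed lines mark a change of 1. Most neighbours lie within 1 of 0, and GASK1A, slco1f4 and slco1f3 lie lowest.

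Other genes of the same family or the same genomic clone were mostly not called. For 19 of the 40 genes such relatives are in the table, 119 in all, of which 20 had 0 counts in all 6 libraries and 69 were tested. The gene trim35-7 was the 1 relative called (1.45%, beside 3.11% over all genes tested), and the median log2 fold change of the 69 was -0.04. DESeq2, with 1292 calls over all genes, called 4 relatives, trim35-7, trim35-1 and slco1f3 as lower and trim35-45 as higher in the mutant, and without WT replicate 2 edgeR called SYT9 as higher. In 11 of the 69 all mutant libraries lay below all WT libraries (15.9%, beside 14.0%). In 7 of the 69 all mutant libraries lay above (beside 14.3% of all genes tested). The neighbours slco1f3 and slco1f4 are among these 11 as well. For cngb3.2 the relatives went both ways, from -1.50 to 1.88 on the log2 scale over 4 tested genes, and its nearest relative cngb3.1 had 0 counts in all 6 libraries. The same holds for rph3aa and styk1a, the paralogs of rph3ab and styk1b, which had no counts in either genotype. So in these pairs the paralog with counts in WT was the only one read at all.

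The clone-named relatives included 1 gene with nearly the pattern of the group. The clone of si:ch211-93n23.3, which had 1, 0 and 0 counts in mutant and 101, 32 and 69 counts in WT replicates 1, 2 and 3, also holds si:ch211-93n23.4, with 1, 0 and 0 counts in mutant and 61, 8 and 79 counts in WT. Both were lowest in WT replicate 2 among the WT libraries, and the value of 8 kept si:ch211-93n23.4 out of the rule and out of the genes tested. When all genes with at least 1 count were tested, it was called with an adjusted p of 0.0428 from edgeR's test. In contrast, si:ch73-36p18.2 and si:ch73-36p18.3, of the clone of si:ch73-36p18.4, changed by 0.27 and -0.86 on the log2 scale and were not called (edgeR adjusted p = 0.853 and 0.387).

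The WT libraries differed from each other in many of these genes. The ratio of the highest to the lowest WT count ran from 1.08 in si:dkey-172o7.1, with 91, 84 and 87 counts, to 6.42 in si:dkey-106n21.1. Its median was 2.13 in the 40 genes and 1.82 in the 5528 other genes of the same range of WT means, and it was at least 2 in 60% of the 40 and in 41.9% of the others. The median of the WT mean counts was 72.3 for the 40 and 119 for the others, so the 2 sets also differed in level, and the difference in spread was not tested. WT replicate 1 was the highest library for 17 of the genes, WT replicate 2 for 12 and WT replicate 3 for 11, with 1 tie.

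In 4 genes the WT libraries differed at least 4-fold. In si:dkey-106n21.1, ENSDARG00000117254 and dnaaf3l the highest library was WT replicate 2, with 321, 205 and 108 counts, and in si:dkey-9c18.3 it was WT replicate 3. Of the 4 testis markers found in the table, SPATA4 had 220, 220 and 211 counts in mutant and 71, 591 and 82 counts in WT replicates 1, 2 and 3, and DMRT1 had 625, 640 and 168 counts in mutant and 124, 393 and 88 counts in WT, while TEKT1 was lowest in WT replicate 2 among the WT libraries and TSSK6 had 0 counts in every library. The summed level of the list ran from 4.89 to 11.6 CPM in mutant ovaries and from 2.34 to 13.2 CPM in WT ovaries. The part of these markers in the high values of WT replicate 2 was not tested.

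**Figure D4:**
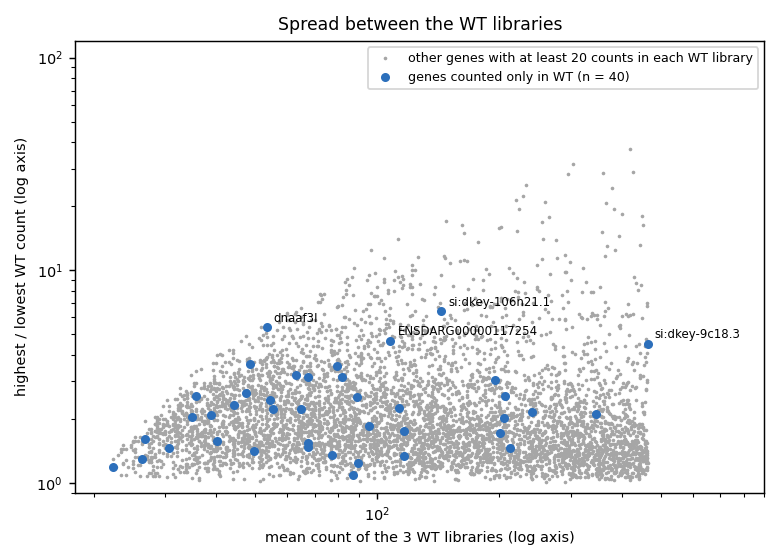
Ratio of the highest to the lowest WT count against the mean WT count (log axes) for the 40 genes (blue) and for other genes with at least 20 counts in each WT library in the same range (grey). The 4 labelled genes have ratios between 4.52 and 6.42.

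The summed level of early meiotic germ cell markers did not overlap between the genotypes. Of 8 such genes 6 were tested and 1 was called as lower in the mutant. This was SYCP1, which encodes a protein of the synaptonemal complex, with 61, 68 and 63 counts in mutant and 1719, 1339 and 1737 counts in WT replicates 1, 2 and 3. The markers did not move one way, and the median change of the 6 tested was -0.521 on the log2 scale. SYCP3 had 8, 8 and 0 counts in mutant and 67, 42 and 66 counts in WT, without overlap. It was not called (edgeR adjusted p = 0.116). The genes sycp2 and HORMAD1 were fitted at -0.635 and -0.407, with overlapping genotypes. The gene spo11, for the enzyme that cuts DNA to start meiotic recombination, had 1147, 925 and 1124 counts in mutant and 249, 255 and 655 counts in WT, without overlap, but was not called (1.47 on the log2 scale, edgeR adjusted p = 0.069), and MEIOB was fitted at 0.50 with overlapping genotypes. For the list, the summed level was 15.8 to 16.9 CPM in mutant ovaries and 24.1 to 31.1 CPM in WT ovaries. The lower sum in the mutant came from SYCP1. Without this gene the list would sum higher in the mutant than in WT, which came from spo11, the marker with the highest mutant counts. Without both genes the sums of the genotypes would overlap. Of the untested markers, DMC1 had at most 10 counts and rec8a had 0 counts in every library. The summed levels of 2 other lists, over the markers matched, did not overlap either, and both were higher in the mutant. Of all single genes tested, 28.4% did not overlap in either direction, and no such share was computed for sums over lists. The 7 of 9 granulosa and theca markers that were matched summed to 94.9 to 100 CPM in mutant ovaries and 50.1 to 87 CPM in WT ovaries. CYP17A1 had the highest counts among these 7. CYP11A1, of the same list, was not matched because more than 1 gene carries this symbol. The CYP11A1 gene ENSDARG00000002347 went the other way. It had 130.3 ± 10.7 CPM in mutant and 213.5 ± 24.4 CPM in WT ovaries (SD, n = 3). At -0.713 on the log2 scale (edgeR adjusted p = 0.0166), this gene missed the call only by the limit on the change. With this gene added the sum would be lower in the mutant. What any other gene of this symbol would add was not weighed. Liver markers summed to 12.9 to 420 CPM in mutant ovaries and 0.291 to 3.14 CPM in WT ovaries. Among them tfa had the highest counts in every library. For blood, leukocytes, stroma and testis the sums overlapped. None of the tested genes of these 6 lists was called. The part of these cells in the absence of the 40 genes was not tested.

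Genes just outside the rule were listed by counts near its limits, so their likeness to the group follows from that choice. Of the 15776 genes with at least 20 counts in each WT library, 31 had a highest mutant count of 4 to 8. The best read of them were si:ch211-180a12.2, with 8, 0 and 4 counts in mutant and 527, 713 and 621 counts in WT replicates 1, 2 and 3, and dok1a, an adaptor gene of tyrosine kinase signalling, with 4, 0 and 0 counts in mutant and 341, 519 and 589 counts in WT. The haemoglobin gene hbae5 had 0, 0 and 6 counts in mutant and 260, 345 and 230 counts in WT. All 3 had over 200 counts in each WT library, and mutant values under the floor kept them out. On the other side, 13 genes with at most 3 counts in each mutant library had a lowest WT count of 15 to 19, such as slc24a2 (ENSDARG00000042988), a cation exchanger gene with 0 counts in the mutant and 18, 27 and 118 counts in WT. The genes si:ch211-125o16.5 and ENSDARG00000117794 had 0 counts in the mutant and a lowest WT count of 19 and 18. Neither the 31 nor the 13 genes were counted with the genotypes exchanged.

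All 40 genes passed the filter on low counts, which they did through the WT libraries alone. In the fit over all genes, edgeR called 38 of them as lower in the mutant, beside 1.77% of all genes tested, and the 2 not called were trim35-24 and si:dkeyp-73a2.2. The rule used this contrast, so nothing is read from that count. With 1 library left out in turn, between 18 and 22 of the 40 were called.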

How the data were processed

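By the methods of the study, reads were trimmed with Cutadapt, mapped to GRCz11 with STAR and counted per Ensembl gene with featureCounts, while the submitters' processing notes name HISAT2, StringTie, RSEM and DESeq2, and the sources name different library kits. How strand and multi-mapping reads were treated is not given in the sources used here. The authors deposited whole numbers that are not scaled between libraries and sum to more than the reads, and these were used as estimated counts. Of 32519 genes, 29200 were given a symbol.

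Genes kept by filterByExpr were normalized by TMM and tested between the genotypes in all 6 libraries by quasi-likelihood F-tests (edgeR 4.0.16, R 4.3.3) with Benjamini-Hochberg adjustment. The design was written for counts and was kept. Neighbours came from the order of genes in the RefSeq annotation of GRCz12tu, in which 17211 genes matched by symbol or synonym. Named are the 12 genes with the highest WT level, all genes with a gene name, the 3 with the lowest WT count, those just outside the rule, and called neighbours or relatives, and other genes were chosen after their values were seen. The members and lists were chosen with earlier results of these data known. P-values set the genotype difference against the spread between the 3 libraries of each genotype, estimated with information from all genes tested. Part of this spread may be technical. Alternatives were other limits of the rule, RLE and total-count scaling, other filters, DESeq2 1.42.0, a replicate block, and leaving out each library. Figures were drawn with matplotlib 3.10.9.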

Additional observations from a re-analysis of the deposited data

How the results depend on the processing

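The number of genes counted only in WT depends on the limits of the rule. It was 79 with at least 10 counts and 22 with at least 40 counts in each WT library, 108 with at most 12 counts in each mutant library and 185 with the limits set on the mean of 3 libraries, against 40. With 0 counts required in the mutant it was 35 and with counts scaled after TMM 37. With 1 library left out it ran from 53 to 78, with 78 without mutant replicate 1, 67 without mutant replicate 2, 63 without WT replicate 1 and 64 without WT replicate 2.

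Over all genes, edgeR called 601 (342 lower and 259 higher in the mutant), DESeq2 1292, and edgeR with 1 library left out 314 to 473, with 314, 333 and 352 without mutant replicates 1, 2 and 3 and 394 without WT replicate 1. With total-count scaling 298 of 603 were lower. The fit with the replicate number as a block called 276 genes, 9 of the 40 among them, against 38 without it. Same-numbered libraries did not deviate together (correlations of -0.07, 0.08 and -0.02 for replicates 1, 2 and 3), so the numbers give no pairing. Among the nearest neighbours, DESeq2 called 1, and edgeR called 0 to 1 with 1 library left out. With 3 genes on each side it called 1, against 0. Their median log2 fold change ran from -0.0696 (without WT replicate 2) to 0.0813 (without mutant replicate 3) with 1 library left out. Depth limits the group at its lower end, where 18 of the 40 genes have a WT library under 40 counts. The neighbours slco1f3 and slco1f4 have mutant values under 12, so the log2 sizes given for them are uncertain.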
